A study of Mus musculus with 16 samples.

Results

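Lysosomal cathepsins are the peptidases that break down protein inside the lysosome. The 10 genes Ctsa, Ctsb, Ctsc, Ctsd, Ctsf, Ctsh, Ctsl, Ctss, Ctsw and Ctsz were taken by gene symbol from the RPKM tables of femoral cortical bone, and were 10 of the 16973 features tested and of 36829 listed. Each symbol was found, and all 10 genes passed the filter on low values (a mean of at least 0.5 RPKM over all mice). An RPKM value is a gene's read number scaled to gene length and library size.

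RNA came from 16 female C57Bl/6 mice (C57Bl/6J in the study's methods), 11 weeks old and carrying no transgene or other agent named in the labels. In the HLU group, 8 mice were hung by the tail for 7 days so that the hindlimbs bore no weight (hindlimb unloading), and the 8 control mice walked normally. The ends of the bone were cut off and the marrow was flushed out before the shaft was frozen, so each sample is a whole tissue that can keep marrow cells. The comparison asks which transcripts change in cortical bone when mechanical load is removed.

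Cathepsins are made as inactive proenzymes, carried to the lysosome mainly by the mannose 6-phosphate receptors, and activated there by acid. Most are cysteine peptidases of the papain family (Ctsb, Ctsc, Ctsf, Ctsh, Ctsl, Ctss, Ctsw and Ctsz), whereas Ctsd is an aspartic peptidase and Ctsa a serine carboxypeptidase. Stefins and cystatins block the cysteine cathepsins, stefins in the cytosol and cystatins mainly outside the cell. In bone, the relative best known is cathepsin K (Ctsk), which osteoclasts secrete onto the bone surface to cut collagen, while the 10 lysosomal cathepsins are found in many cell types, macrophages and granulocytes among them.

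Promoter sequence is shown for the 6 genes whose window held a match to a motif, since some pairs of these genes varied together among mice, in the same or in opposite directions. RefSeq windows of 300 bases (250 before and 50 after an annotated start, build GRCm38.p6) were matched for 7 of the 10 genes, all but Ctsb, Ctsh and Ctsw. The motifs, chosen with results of these data known, were TCACGTGA, the E-box form that TFEB and related lysosomal regulators bind, its core CACGTG, which lies inside it, and GAGGAAGT, an ETS form bound by the myeloid factor PU.1. Both strands were searched. TCACGTGA lay in 0.974% of all 32851 windows, CACGTG in 7.15% and GAGGAAGT in 3.2%. The 60-base stretches below read 5′ to 3′ on the gene's strand, with matches in capitals.
Ctsa, chr2:164833725-164833784, plus strand: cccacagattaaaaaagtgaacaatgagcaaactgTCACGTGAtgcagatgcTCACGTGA
Ctsd, chr7:142387893-142387952, minus strand: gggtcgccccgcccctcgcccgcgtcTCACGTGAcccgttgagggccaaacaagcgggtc
Ctsf, chr19:4855059-4855118, plus strand: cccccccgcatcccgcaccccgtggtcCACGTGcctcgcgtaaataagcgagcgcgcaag
Ctsl, chr13:64370711-64370770, minus strand: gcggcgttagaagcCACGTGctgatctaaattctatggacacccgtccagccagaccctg
Ctsc, chr7:88277908-88277967, plus strand: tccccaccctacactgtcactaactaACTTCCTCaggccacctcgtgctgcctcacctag
Ctss, chr3:95526738-95526797, plus strand: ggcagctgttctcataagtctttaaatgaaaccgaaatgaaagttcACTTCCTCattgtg

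The full 8-base E-box was thus found for Ctsa (in 1 of its windows, with 2 copies) and Ctsd, the core alone for Ctsf and Ctsl, and the ETS form, read on the opposite strand, for Ctsc and Ctss. The Ctsz window held none of the 3 motifs. A match is a description of these letters and shows neither binding nor a cause.

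The cathepsins were among the more abundant transcripts of the tissue. In the files' RPKM, Ctsb, an endopeptidase that also removes dipeptides from the carboxyl end, was the highest of the 10 at 213.3 ± 32.6 RPKM (SD over 16 mice), above 99.1% of the features tested. Ctsl was at 104.9 ± 13.2, Ctsd at 94.2 ± 24.3, Ctsz at 83.9 ± 22.3 and Ctss at 82.0 ± 21.6 RPKM, each above at least 97.2% of features. A second tier lay well below, with Ctsh at 20.99 ± 4.75, Ctsc at 17.7 ± 6.49, Ctsa at 16.9 ± 3.66 and Ctsf at 15.8 ± 3.82 RPKM. Ctsw, a member known from T and natural killer cells, was the lowest at 7.50 ± 2.41 RPKM, with 40 to 239 reads per mouse.

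For each of the 9 steps between neighbours in this order, the log2 difference was taken within each mouse. The mean difference over the 16 mice was off 0 at an adjusted p under 0.05 in 4 steps (two-sided exact sign-flip permutation test, Benjamini-Hochberg over the 9 pairs). Ctsb exceeded Ctsl 2.02-fold, Ctss exceeded Ctsh 3.85-fold, and Ctsf exceeded Ctsw 2.14-fold, each in 16 of 16 mice (adjusted exact p = 9.16e-05 each). Ctsh exceeded Ctsc 1.22-fold in 12 of 16 mice (adjusted exact p = 0.00625). Ctsl and Ctsd (adjusted exact p = 0.103), Ctsd and Ctsz (0.0879), Ctsz and Ctss (0.875), Ctsc and Ctsa (0.875), and Ctsa and Ctsf (0.213) were not told apart.

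The order depended on the gene length behind the RPKM. The lengths implied by the values were 9533 bases for Ctsa, 5859 for Ctsd and 1975 for both Ctsl and Ctsf, against merged exons of 4715, 2351, 6489 and 5041 bases in GENCODE M21. With the same reads divided by the GENCODE lengths, Ctsd came first at 234.7 ± 60.7 and Ctsl moved to the 6th place at 31.9 ± 4.01 on the RPKM scale. Ctsb was then second at 167.0 ± 25.5, and Ctsw stayed last. A gene's length cancels in its own ratio between groups.

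**Figure D1:**
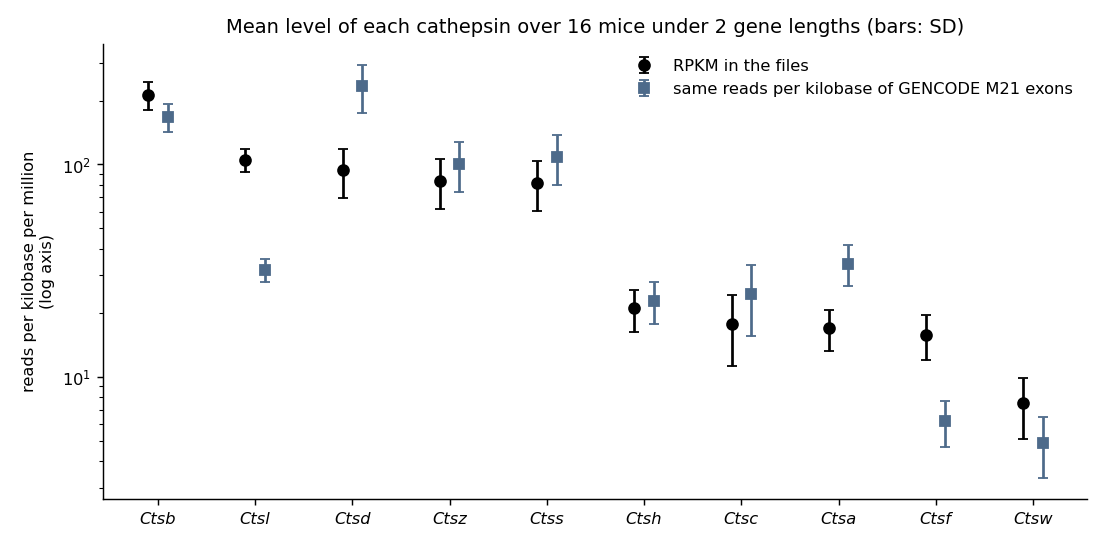
Mean level of each cathepsin over 16 mice on a log axis, with SD bars, as RPKM in the files (circles) and as the same reads per kilobase of GENCODE M21 exons (squares). Ctsl moves from 104.9 to 31.9 and Ctsd from 94.2 to 234.7 between the 2 lengths, whereas Ctsz and Ctss stay near 100.

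How much a cathepsin varied among mice also differed between members. Ctsl was the steadiest, with a within-group SD of 0.14 on the log2 scale, a value below which only 1.11% of tested features lay. Ctsb followed with 0.23 (12.3% of features lower). The other 8 lay between 0.34 and 0.51, around the median feature at 0.43, and the most variable was Ctsw, which spanned 3.63-fold from the lowest to the highest mouse.

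Most cathepsin transcripts overlapped widely between HLU and control mice, and Ctsl stood highest in HLU mice relative to controls. At an unadjusted p under 0.05 with at least a 1.2-fold change, the threshold used for counting, 0 of the 10 genes were called, against 996 of 16973 features (5.87%). After Benjamini-Hochberg adjustment over all features, limma called 0 of the 10 at 0.1, and no feature of the whole table. The study's own test, DESeq2, is unlike limma on RPKM. At the same fold and adjusted thresholds it did call genes, Stfa1 and Stfa2 among them. At an unadjusted p under 0.05 with any fold, 1 of the 10 passed in limma (Ctsl, higher), as did 6.18% of all features and 1.13% in the higher direction. voom on the reads recovered from the RPKM also called 0 of the 10. The median log2 fold change of the 10 genes was -0.10, the same as over all features tested (-0.10), and 7 of the 10 were below 0. In whole tissue, fewer cells of a type and less RNA per cell cannot be told apart.

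**Figure D2:**
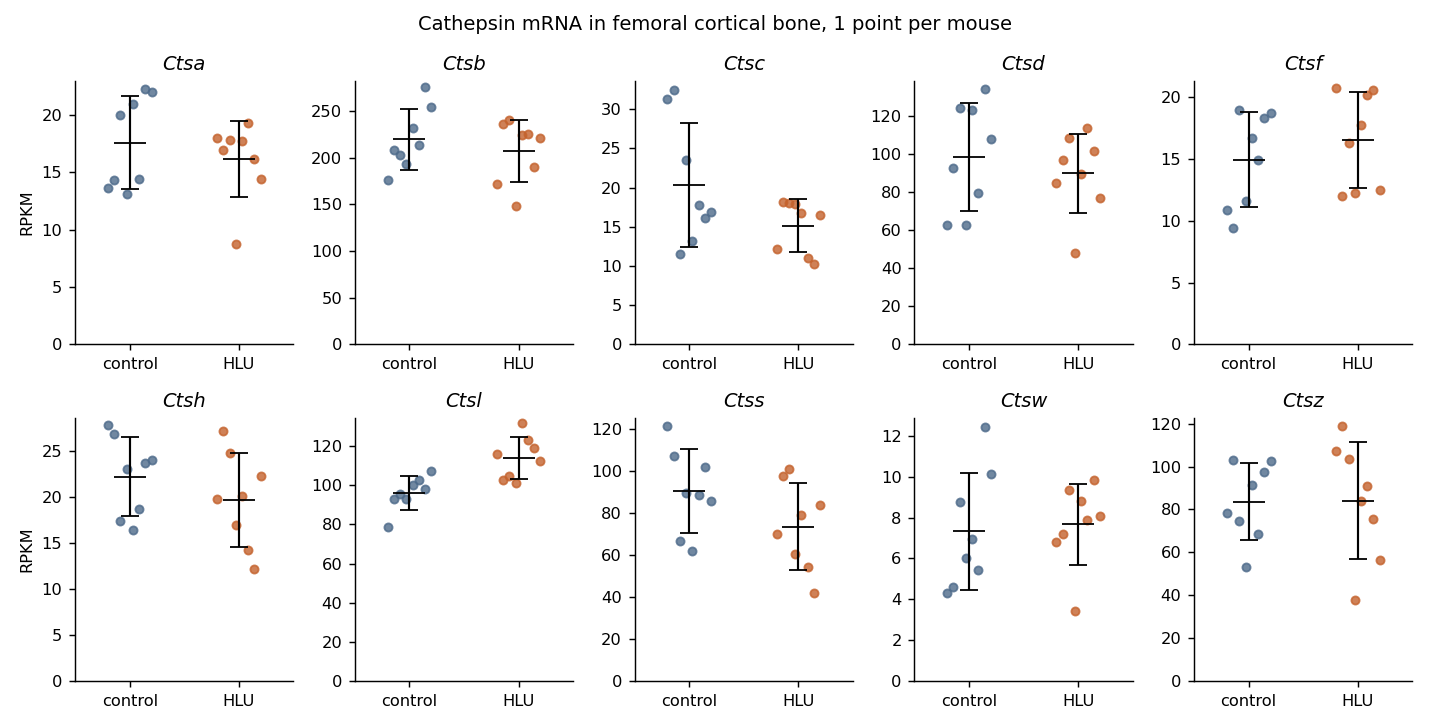
RPKM of each cathepsin gene in every mouse (1 point per mouse, bars are mean and SD, n = 8 per group, axes start at 0). All 8 HLU mice lie above the control median of Ctsl, 96.9 RPKM, whereas the groups overlap widely for the other 9 genes, and 1 HLU mouse lies lowest for Ctsa, Ctsb, Ctsd, Ctsw and Ctsz.

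Ctsl encodes cathepsin L, a strong endopeptidase of the lysosome. Its RPKM ran from 78.5 to 107.2 (median 96.9) in control mice, and from 101.2 to 131.9 (median 114.3) in HLU mice. Thus 5 of 8 HLU mice were above every control mouse, all 8 were above the control median, and the ranges overlapped between 101.2 and 107.2. The means were 96.0 ± 8.61 and 113.9 ± 10.8 RPKM (SD, n = 8 each), a 1.19-fold difference that fell just short of 1.2-fold (log2 fold change 0.25, standard error 0.09, 95% interval 0.06 to 0.44). It passed the two-sided exact permutation test over mice (p = 0.00186) and the unadjusted limma test (p = 0.0145), but not limma's adjustment over all features (adjusted p = 0.744). With each library rescaled by the median of its ratios to the mean library, which moved the median of all features from -0.10 to -0.02, the log2 fold change of Ctsl was 0.33 and passed the 1.2-fold threshold (against 4.58% of features called at that scaling). It also passed 1.2-fold without Control 8 (0.27), without HLU 2 (0.27) or without HLU 4 (0.27). In these fits 814, 1748 and 800 of 16973 features were called, against 996 with all mice. Leaving out any other single mouse gave no call of Ctsl, and the lowest log2 fold change of Ctsl was 0.205. Without the smallest libraries, Control 2 and HLU 5, it was 0.21 and no longer passed the unadjusted limma test. In GENCODE M21 the gene lies on chromosome 13 from 64359337 to 64370890, where its exons overlap an antisense transcript (Gm47123) and a processed pseudogene (Gm49230), so some reads could belong to either.

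The aminopeptidases and cathepsin S were at the other end of the range. Ctsc, a dipeptidyl peptidase that activates the serine proteases of granulocytes and cytotoxic lymphocytes, ran from 11.6 to 32.5 RPKM (median 17.3) in control mice and from 10.2 to 18.2 (median 16.6) in HLU mice. The 3 highest values, 31.3, 32.5 and 23.5 RPKM, were all in control mice (1, 2 and 4), and no HLU mouse exceeded 18.2. Its log2 fold change of -0.37 (95% interval -0.83 to 0.09, exact permutation p = 0.129) did not pass. It passed the call without Control 3 (-0.47, with 1270 of 16973 features called) and with the GC slope described further on as a covariate (-0.37, with 9.67% of features called). Leaving out any other single mouse gave no call of Ctsc, and the value nearest to no change was -0.26. Ctss, an elastin-cutting endopeptidase that also trims the invariant chain in antigen-presenting cells, ran from 61.9 to 121.4 RPKM (median 89.1) in control mice and from 41.7 to 101.1 (median 74.4) in HLU mice. There 3 HLU mice were below every control mouse, and the log2 fold change was -0.32 (95% interval -0.72 to 0.08, exact permutation p = 0.12). Ctsh, an aminopeptidase, ran from 16.4 to 27.9 (median 23.4) in control mice and from 12.2 to 27.2 RPKM (median 20.01) in HLU mice, with a log2 fold change of -0.19 (95% interval -0.55 to 0.16).

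The remaining 6 genes did not pass either. Ctsb had medians of 211.1 and 222.3 RPKM in control and HLU mice and a log2 fold change of -0.09 (95% interval -0.36 to 0.18). For Ctsd the medians were 100.2 and 93.0 RPKM and the log2 fold change was -0.12 (95% interval -0.54 to 0.31). For Ctsa, which as protective protein also stabilises the lysosomal enzymes Glb1 and Neu1, the medians were 17.3 and 17.4 RPKM and the log2 fold change was -0.12 (95% interval -0.49 to 0.24).
Ctsz, a carboxypeptidase, had medians of 84.9 and 87.3 RPKM and the highest coefficient of variation of the 10 genes within HLU mice, 32.3%, with values from 37.5 to 118.8 RPKM. The log2 fold change of Ctsz was -0.04 (95% interval -0.50 to 0.42) and turned to 0.04 with the rescaled libraries. Ctsf was at 15.8 and 17.0 RPKM (medians), with 3 HLU mice above every control mouse and a log2 fold change of 0.16 (95% interval -0.22 to 0.54). Ctsw was at 6.47 and 7.96 RPKM (medians), with a log2 fold change of 0.10 (95% interval -0.41 to 0.61). The intervals of Ctsd, Ctsz and Ctsw reach 1.2-fold in both directions, those of Ctsa and Ctsb only toward lower levels in HLU mice, and that of Ctsf only toward higher ones.

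The lists of marrow cell genes had medians below 0 to different degrees, where 67.9% of all features were below 0 and 4.76% were called lower. Of 15 erythroid genes tested, 15 had a log2 fold change below 0 and 5 passed the unadjusted call, with a median of -0.60, and their summed level ran from 3270 to 9146 RPKM in control mice and from 1784 to 4763 in HLU mice. The 11 granulocyte genes had a median of -0.14, with 0 called and a summed level of 18616 to 39578 RPKM in control mice and 13190 to 46466 in HLU mice. The 14 macrophage genes had a median of -0.25, with 0 called and a summed level of 196.5 to 383.8 RPKM in control mice and 161.5 to 409.7 in HLU mice. Of 13 T and NK cell genes 12 were below 0 and 1 was called lower (median -0.38), and of 11 B cell genes 11 were below 0 and 1 was called lower (median -0.38). Of 11 dendritic and antigen-presenting genes 10 were below 0 and 2 were called lower (median -0.30). With the erythroid and granulocyte scores as covariates, 5 of the 10 cathepsins passed the unadjusted call, against 18.8% of all features. These were Ctsc (log2 fold change -0.62), Ctss (-0.30), Ctsl (0.31), Ctsf (0.37) and Ctsw (0.57). Ctsc also passed limma's adjusted threshold of 0.1 in that fit (adjusted p = 0.091), as did 0.925% of features, and the other 4 did not (adjusted p from 0.102 to 0.138). In that fit Ctsa (0.18), Ctsb (0.15), Ctsd (0.27) and Ctsz (0.21) turned from below to above 0, none of which passed. The part of marrow cells in the group differences was not tested.

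**Figure D3:**
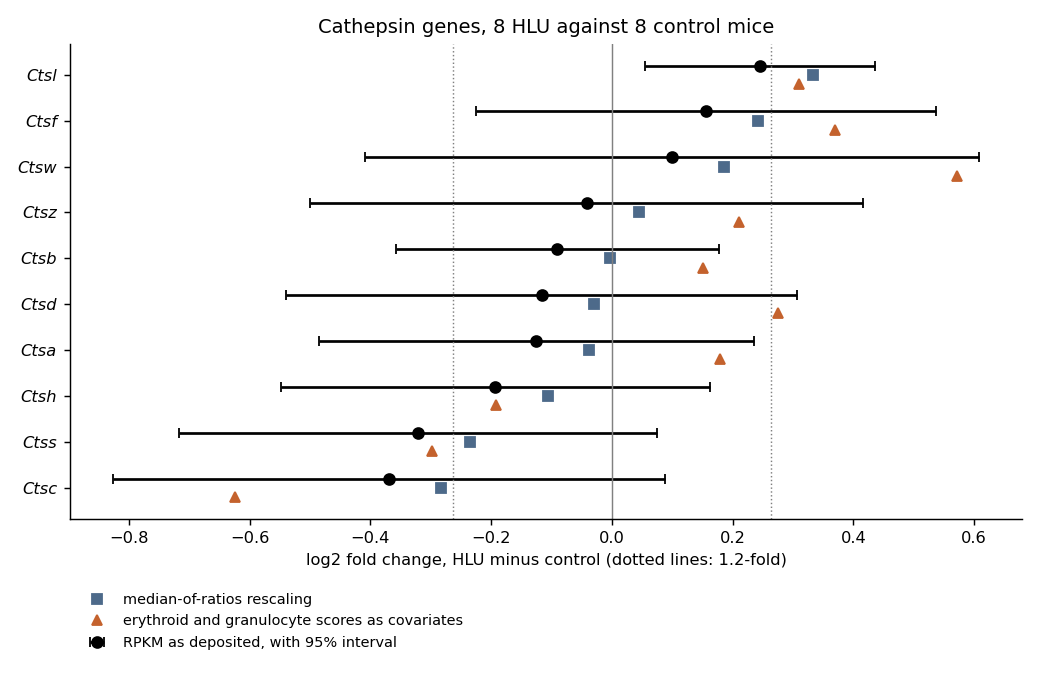
Log2 fold change (HLU minus control, 8 mice each) of each cathepsin gene from the RPKM as deposited (circles, with 95% intervals), after median-of-ratios rescaling (squares), and with erythroid and granulocyte scores as covariates (triangles); dotted lines mark 1.2-fold. Only the Ctsl interval (0.06 to 0.44) lies off 0 in the RPKM as deposited, and with the scores added Ctsc goes from -0.37 to -0.62 and Ctsw from 0.10 to 0.57.

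The 10 genes did not vary as one set among mice. After the mean of each group was removed, 24 of the 45 pairs were correlated at an adjusted p under 0.05 (100000 permutations within groups, two-sided, Benjamini-Hochberg over the 45 pairs), 18 positively and 6 negatively. Among these 24, the share of all features with an r as far from 0 ran from 0.0177% (to Ctsh, for Ctsh and Ctss) to 37.4% (to Ctsf, for Ctsf and Ctss). An r of the size seen was thus common among all features for part of the pairs, such as Ctsc and Ctsl (37.0%). Ctsa, Ctsb, Ctsd, Ctsw and Ctsz formed one positive block, in which every pair but Ctsw and Ctsz passed, and Ctsc, Ctsh and Ctss formed another. Ctsf and Ctsl were related positively to each other, to Ctsa and to Ctsw, and negatively to Ctsc.

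In the first block the closest pair was Ctsa and Ctsd (Pearson's r = 0.923, permutation p = 4e-05, adjusted p = 0.0009, Spearman's rho = 0.862, permutation p = 0.00034, n = 16 mice). It was 0.918 among control mice and 0.937 among HLU mice, and 0.851 without the 2 mice farthest from the median of Ctsa. Only 0.984% of features had an r with Ctsa as far from 0. Ctsa with Ctsw gave r = 0.86 (permutation p = 0.00098, rho = 0.762 with p = 0.00346), and Ctsa with Ctsz r = 0.769 (permutation p = 0.00151, rho = 0.529 with p = 0.0269), which dropped to 0.447 without 2 mice.

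A property of the libraries moved with this block. For each library, the slope of its log2 values on transcript GC content was measured over 14746 features (per 10 GC points, relative to the mean library). The GC slope ran from -0.49 to 0.40 in control mice and from -0.60 to 0.26 in HLU mice, and did not differ between groups (difference in means 0.003, exact permutation p = 0.987). Ctsd followed it with r = 0.954 (permutation p = 2e-05, adjusted p = 0.0003, rho = 0.918 with p = 2e-05, 0.917 without 2 mice), and Ctsa with r = 0.905 (permutation p = 2e-05, rho = 0.85 with p = 0.00031). Ctsf (0.79), Ctsw (0.767), Ctsz (0.682) and Ctsb (0.615) followed it less closely, and Ctsc went against it (-0.735), each with an adjusted permutation p under 0.05 for Pearson's r. Without the 2 mice farthest from the median slope the r was 0.777 for Ctsf, 0.692 for Ctsw and -0.793 for Ctsc, but 0.346 for Ctsz and 0.385 for Ctsb. The relations of Ctsz and Ctsb rested on those mice, and did not pass by Spearman's rho (adjusted permutation p = 0.223 and 0.278). HLU 4, whose slope was the lowest at -0.60, also had the lowest Ctsa, Ctsb, Ctsd, Ctsw and Ctsz of all mice, and Control 1 and Control 4 (slopes of -0.48 and -0.49) had the next lowest Ctsd, 62.8 and 62.9 RPKM. The transcripts of Ctsa, Ctsd, Ctsf, Ctsw and Ctsz have 54.5% to 57.3% GC, that of Ctsb has 49.2% and that of Ctsc 43.9%. Those of Ctsl, Ctsh and Ctss have 44.3%, 51.2% and 45.9%. Their r with the slope was 0.562, -0.353 and -0.359, none at an adjusted permutation p under 0.05. Ctsa, Ctsd, Ctsf, Ctsw and Ctsz, the highest of the 10 in GC content, also had the highest r. Among the others the r did not follow the order of GC content. Why the r differed between genes was not tested. With the slope removed from both genes, Ctsa and Ctsd had r = 0.465 (permutation p = 0.0933), and 8 rather than 24 pairs passed, 5 of them among the 24. Within the first block only Ctsb and Ctsd still passed (r = 0.734, adjusted permutation p = 0.0308).

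The 3 pairs among Ctsc, Ctsh and Ctss were kept with that slope removed, and Ctsz then ran with all 3 genes. The r of Ctsz with Ctsc went from -0.10 to 0.803 (adjusted permutation p = 0.00247), that with Ctsh from 0.293 to 0.779 (0.0112) and that with Ctss from 0.257 to 0.735 (0.0204). Ctsh and Ctss, the aminopeptidase and the antigen-processing endopeptidase, gave r = 0.961 (permutation p = 1e-05, the smallest that the permutations can give, adjusted p = 0.00045, rho = 0.932 with p = 1e-05), with 0.918 among control mice, 0.985 among HLU mice and 0.955 with the GC slope removed. Only 0.0177% of features had an r with Ctsh as far from 0. In HLU 2 and HLU 3 both genes were high (Ctsh 27.2 and 24.8 RPKM, Ctss 97.7 and 101.1 RPKM), and in HLU 7 both were at their lowest (12.2 and 41.7 RPKM). Ctsc followed Ctss (r = 0.778, permutation p = 0.00024, rho = 0.815 with p = 0.0002) and Ctsh (r = 0.769, permutation p = 0.00033, rho = 0.785 with p = 0.00045), and both relations were kept with the slope removed (0.812 and 0.804). Ctsc and Ctsf went in opposite directions (r = -0.876, permutation p = 7e-05, rho = -0.871 with p = 0.00011, -0.71 with the slope removed).

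**Figure D4:**
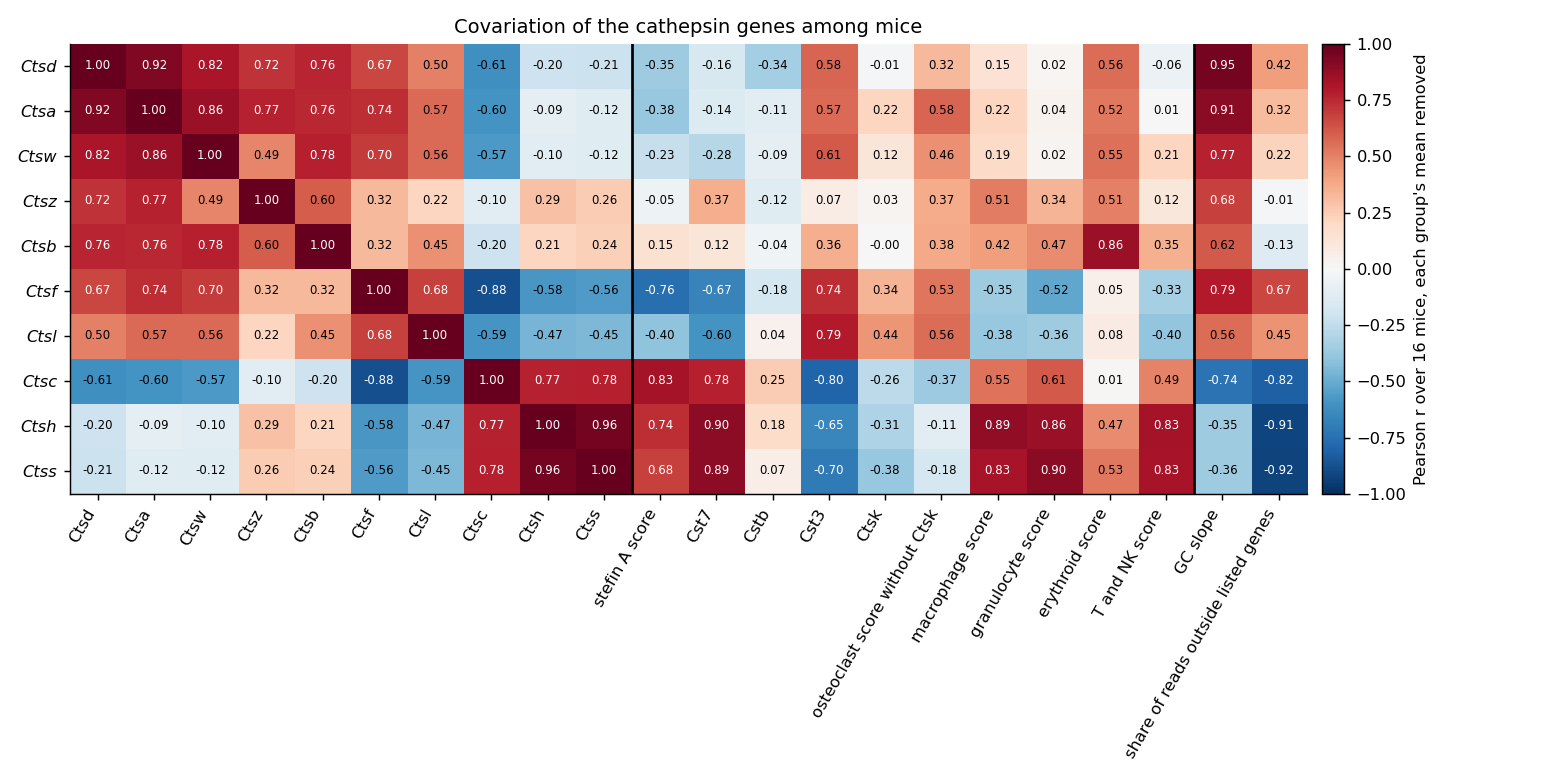
Pearson's r over 16 mice, with the mean of each group removed, between each cathepsin (rows) and the other cathepsins, inhibitors, osteoclast and marrow cell measures, and 2 library measures (columns, red positive and blue negative). A block of Ctsd, Ctsa, Ctsw, Ctsz and Ctsb follows the GC slope (0.62 to 0.95), and a block of Ctsc, Ctsh and Ctss follows Cst7 (0.78 to 0.90) and runs against the share of reads falling on no listed gene (-0.82 to -0.92).

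Ctss and Ctsh ran with myeloid genes. Of 100 relations between the 10 cathepsins and 10 partner measures, 21 passed an adjusted p of 0.05 (16 positive, 5 negative), and with the GC slope removed 33 passed, 19 of them among the 21. A score here is the mean log2 value of a list after centring each gene. Over the 21, the share of all features with an r to the partner as far from 0 ran from 0.383% (macrophage score, for Ctsh) to 29.2% (granulocyte score, for Ctsc). Ctss followed the granulocyte score (r = 0.902, permutation p = 1e-05, rho = 0.906 with p = 1e-05, 0.859 without 2 mice), as did Ctsh (0.864). Ctsh followed the macrophage score (r = 0.886, permutation p = 3e-05, rho = 0.9 with p = 4e-05, 0.868 without 2 mice), as did Ctss (0.827). Ctsc followed the granulocyte score less closely (0.614, adjusted permutation p = 0.0146), and its r of 0.545 with the macrophage score did not pass (adjusted permutation p = 0.0788) unless the GC slope was removed (0.762, adjusted permutation p = 0.00345). The T and NK score also ran with both (0.831 for Ctsh and 0.827 for Ctss, adjusted permutation p = 0.00286 and 0.0029), whereas Ctsw did not follow it (r = 0.213, permutation p = 0.446, rho = 0.224 with p = 0.417) unless the GC slope was removed (0.612, permutation p = 0.0138). Ctsb followed the erythroid score (r = 0.864, permutation p = 3e-05, rho = 0.871 with p = 6e-05, 0.825 without 2 mice).
A library measure ran with these genes too. The share of a library's reads that fell outside the listed genes was 6.75% to 18.6% in control mice and 7.85% to 23.7% in HLU mice (exact permutation p = 0.133), and it was inversely related to Ctss (r = -0.924, permutation p = 2e-05, rho = -0.921 with p = 2e-05), Ctsh (-0.914) and Ctsc (-0.818). The share was also inversely related to the granulocyte (-0.824), T and NK (-0.813), stefin A (-0.785) and macrophage (-0.724) scores and to Cst7 (-0.75). It ran positively with Cst3 (0.682) and Ctsf (0.666). Its part in these relations was not tested.

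Of the inhibitors, calls were made only among the stefin A genes, and none of those passed limma's adjustment (adjusted p of at least 0.744). They are close copies on chromosome 16, so that the split of reads among them is uncertain, and they were listed here because they had already stood out in these samples, so their direction is not independent evidence. Of 6 tested, 4 rose in HLU mice by the unadjusted call, which 1.11% of all features passed in that direction, and 6 were above 0, with a median log2 fold change of 1.03. Stfa2l1, the most abundant, ran from 12.9 to 34.9 RPKM (median 22.7) in control mice and from 18.1 to 80.7 (median 37.2) in HLU mice. It differed by 0.69 on the log2 scale (limma adjusted p = 0.744, exact permutation p = 0.0511), beside 1.01 for Stfa1, 1.31 for Stfa2 and 1.046 for BC100530. These last 3 rest on few reads per mouse, 12 to 82 for Stfa1, 2 to 60 for Stfa2 and 2 to 48 for BC100530. Under the alternative settings the log2 fold change ran from 0.72 to 1.59 for Stfa2 and from 0.38 to 1.44 for BC100530. Stfa3 (1.14, exact permutation p = 0.118) and Gm5483 (0.44, exact permutation p = 0.172) did not pass. Between 2 and 5 of the 6 passed when single mice were left out, with 2 without Control 3, 5 or 7 or without HLU 2, 3 or 8.

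Within groups the stefin A score followed Ctsc (r = 0.832, permutation p = 0.00029, adjusted p = 0.0029, rho = 0.847 with p = 0.00031). The r was 0.828 among control mice, 0.857 among HLU mice, 0.805 without 2 mice and 0.754 with the GC slope removed, and only 0.501% of features followed the score as closely. The score also ran with Ctsh (0.736) and Ctss (0.681) and against Ctsf (-0.755), but not with Ctsl (r = -0.403, permutation p = 0.136, rho = -0.488 with p = 0.0637). With the GC slope removed it also ran with Ctsb (0.75 in place of 0.154, adjusted permutation p = 0.00593) and Ctsd (0.697 in place of -0.353, adjusted permutation p = 0.00812). The means of the score and of Ctsc nevertheless lay in opposite directions between groups, the score being 0.94 higher in HLU mice and Ctsc 0.37 lower on the log2 scale, of which the Ctsc difference did not pass.

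The other inhibitors did not pass between groups. Cstb, the cytosolic stefin B, was at 65.3 ± 12.3 RPKM in control and 59.7 ± 8.64 in HLU mice, and followed none of the 10 cathepsins (r from -0.34 to 0.25). Cst3, the secreted cystatin C, was at 223.9 ± 83.5 and 229.7 ± 71.9 RPKM. It ran with Ctsl (r = 0.795, permutation p = 0.00034, rho = 0.779 with p = 0.00078, 0.657 without 2 mice, 0.684 with the GC slope removed) and against Ctsc (r = -0.805, permutation p = 0.00058, rho = -0.806 with p = 0.00069). Cst7, cystatin F, a lysosomal inhibitor of blood cells that acts on cathepsin C, was at 37.2 ± 19.0 and 32.5 ± 15.6 RPKM. It ran with Ctsh (r = 0.898, permutation p = 1e-05, rho = 0.921 with p = 1e-05), Ctss (r = 0.891, permutation p = 1e-05, rho = 0.9 with p = 1e-05) and Ctsc (r = 0.778, permutation p = 0.00061, rho = 0.771 with p = 0.00086).

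**Figure D5:**
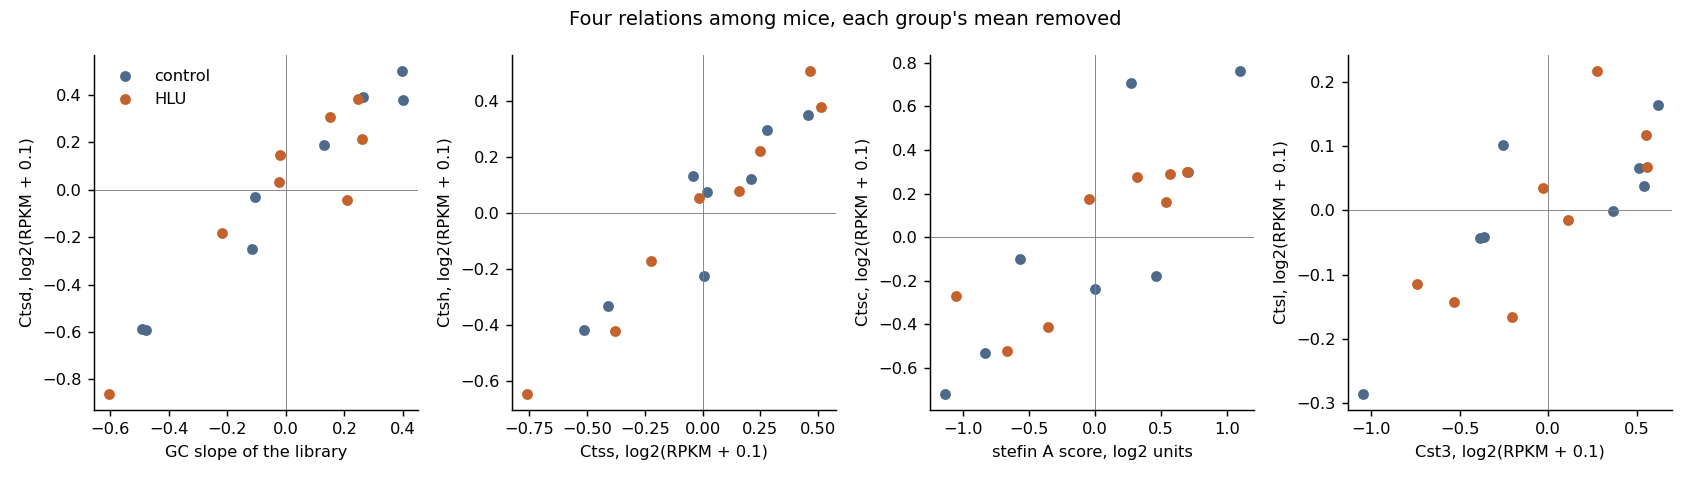
Log2(RPKM + 0.1) of 4 cathepsins in each mouse, with the mean of its group removed, against the GC slope of the library (Ctsd, r = 0.954), Ctss (Ctsh, r = 0.961), the stefin A score (Ctsc, r = 0.832) and Cst3 (Ctsl, r = 0.795). The r is positive among control mice and among HLU mice in each panel, and HLU 4 is the lowest point for Ctsd. Removing the means centres both groups at 0, so an offset between the groups cannot be seen here.

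None of the relations between the lysosomal cathepsins and the osteoclast gene Ctsk passed. Ctsk was far more abundant than any of them, from 424.7 to 1085 RPKM (median 637.1) in control mice and from 431.1 to 1216 (median 776.0) in HLU mice. The log2 fold change of Ctsk was 0.26 (exact permutation p = 0.29). The r of the 10 genes with Ctsk lay between -0.38 (Ctss) and 0.44 (Ctsl), none with an adjusted p under 0.05. With the score of the other osteoclast genes the r was highest for Ctsa (r = 0.578, permutation p = 0.0143, adjusted p = 0.0651, rho = 0.571 with p = 0.0214) and Ctsl (0.557). The relation with Ctsa passed with the GC slope removed (r = 0.697, adjusted permutation p = 0.0184). Of the 15 osteoclast genes tested, 0 rose and 2 fell in HLU mice (4.76% of all features fell), the integrin Itgb3 (log2 fold change -0.46) and the carbonic anhydrase Car2 (-0.65), with a median of -0.06. Megakaryocytes also express Itgb3 and erythroid cells Car2, and 4 of 6 megakaryocyte genes were called lower, with a median of -0.62. The cell source of the lower Itgb3 and Car2 was not tested. Acp5 (-0.12) and Mmp9 (-0.01) were not called.

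The rest of the lysosomal pathway is read against the 5.87% of all features that were called, with 4.76% of all features called lower. Among the 20 genes that sort or activate lysosomal proteins, 0 were called and the median log2 fold change was -0.12. M6pr, the small mannose 6-phosphate receptor, stood at -0.23 (exact permutation p = 0.121), and Igf2r (0.11), Sort1 (-0.08), Gnptab (-0.07), Psap (-0.11) and Lgmn (0.02), the asparaginyl endopeptidase that matures several cathepsins, were closer to 0. Among the 25 genes of the lysosomal membrane and its proton pump, 1 fell, the pump subunit Atp6v0c (4.82 ± 0.411 against 3.91 ± 0.914 RPKM, log2 fold change -0.32, exact permutation p = 0.0171), and it fell short of 1.2-fold with the rescaled libraries (-0.24). Lamp1 (0.02) and Lamp2 (-0.09) did not pass.
Of 32 other lysosomal hydrolases 0 were called, with a median of -0.06, and Glb1 (-0.06) and Neu1 (-0.11), the partners of cathepsin A, were near that. The factors that drive lysosomal genes, Tfeb (0.13), Tfe3 (-0.12), Mitf (0.16) and Tfec (-0.41), were not called. Of 7 serine proteases of the kind that cathepsin C activates, 1 fell, the basophil protease Mcpt8 (-0.64, exact permutation p = 0.0528), which did not pass with the rescaled libraries (-0.55), and Ctsg (-0.17), Gzma (-0.16) and Gzmb (-0.03) were not called. Ctse (-0.49, exact permutation p = 0.14), an aspartic cathepsin, and Ctso (0.05) did not pass either.

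The features nearest to each cathepsin among mice differed in kind. Nearest to Ctsh were Spic (r = 0.979), a transcription factor of red pulp and marrow macrophages that is also in the macrophage list, Ctss (0.961) and Marcksl1 (0.960). Nearest to Ctsz were Gal3st4 (0.975), Ifi30 (0.971), a lysosomal thiol reductase of antigen-presenting cells, and Ppib (0.955). Ctsa was almost equally near to Gnptg (0.973), a subunit of the enzyme that makes the mannose 6-phosphate tag, Rab1b (0.968) and Cic (0.967). Ctsd was nearest to Pef1 (0.984), Brms1 and Edc4. Ctsc was nearest to Ofd1 (0.972), Ssbp1 and Pdia3, Ctsb to Mms19 (0.973), and Ctss to Mbd2 (0.985), Me2 (0.974) and Hmmr (0.974). Ctsf was nearest to Wtip (0.946), and Ctsw to Ip6k1 (0.951), the class II gene H2-Eb1 (0.936) and Nelfb (0.931). How crowded these neighbourhoods were differed widely, since 647 features had an r above 0.9 with Ctsd, 473 with Ctss and 418 with Ctsa but 1 with Ctsl, namely Mir3074-1 (0.903). These likenesses are descriptions over 16 mice that share libraries, depth and base composition.

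The libraries themselves set the limits of these values. The divisor behind the RPKM ran from 7067512 to 21363584 reads per mouse, and each of the 10 cathepsins had at least 40 reads in every mouse. Of the cell type checks, osteocyte genes (median log2 fold change 0.49, 1 of 6 called, Mepe 0.79) and osteoblast genes (-0.08, 0 of 8 called) were present in every mouse, beside 1.11% of all features called higher and 5.87% called either way. Of 11 skeletal muscle genes looked for, 0 had an entry under a unique symbol, so muscle was not checked. Other lists lost genes in this way too, with 11 of 15 granulocyte genes found and 8 of 10 serine proteases activated by cathepsin C. The exons of Ctsa, Ctsb, Ctsd, Ctsl, Ctsw and Ctsz overlap those of another gene in GENCODE M21, Ctsa with Pltp and Neurl2 and Ctsb with Fdft1 for instance, and no source says that strand was used in counting, so their reads may include those of the neighbour.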

How the data were processed

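Total RNA of femoral cortical bone from 16 mice was sequenced, 1 library per mouse. Per the labels and methods, the authors aligned reads with TopHat2 to mm9 and tested with DESeq2, and they deposited RPKM values per gene for each mouse, the values used here. The counting tool, annotation and gene lengths are not given in the sources used here. Whole reads were recovered from the RPKM steps for 16973 of 16973 tested features (within 0.01 of a whole number), with divisors of 7067512 to 21363584 reads. RPKM were tested as log2(RPKM + 0.1) with limma 3.58.1 (variance trend) in R 4.3.3 over every feature whose mean reached 0.5 RPKM, with Benjamini-Hochberg adjustment, so fold changes of low genes are understated. Members of the list, gene lists and named genes were chosen with earlier results of these data known. Named were the 10 cathepsins, the 3 features most like each, a fixed list of lysosomal, inhibitor and osteoclast genes, and up to 3 called genes per list. Correlations, exact tests and alternatives (scaling, pseudocount, filter, covariates, voom, single mice left out) used Python 3.11.15. Positions and exon overlaps are from GENCODE M21 (GRCm38), not the files' build. Mice are separate animals, 8 per group. The scripts were tested on simulated data.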

Additional observations from a re-analysis of the deposited data

Results flagged for a closer look

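Of 34 groups of 8 mice checked for a single distant value, over the 10 cathepsins and related genes, 1 stood out. Ctsa was at 8.74 RPKM in HLU 4, against 14.4 to 19.4 RPKM in the other 7 HLU mice and 13.1 to 22.3 RPKM in control mice, a gap of 0.536 of the range of the group. Chance flags about 1 in 20 such groups. HLU 4 also had the lowest Ctsb, Ctsd, Ctsw and Ctsz and the lowest GC slope. Without it the log2 fold change of Ctsa was -0.004, against -0.12 with it.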

How the results depend on the processing

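The calls among the 10 cathepsins were 0 under pseudocounts of 1 and 0.01, no filter, a minimum of 2 RPKM, no variance trend, voom, the replicate block and without the smallest libraries. They were 1 after rescaling, 5 with the cell scores as covariates (1 of them at an adjusted p under 0.1), 1 with the GC slope as a covariate, and 0 to 1 with single mice left out. Over 7 of the related lists, not all of them, 7 calls became 18 with the cell scores, and 4 to 7 with single mice left out. Calls over all features also rose with the cell scores, from 5.87% to 18.8%. The direction turned with the cell scores for Ctsa (0.18), Ctsb (0.15), Ctsd (0.27) and Ctsz (0.21). Ctsz also turned after rescaling (0.045) and when single mice were left out (up to 0.11, with -0.13 at the other end), Ctsd without HLU 4 (0.0067, with -0.20 at the other end) and Ctsw without the smallest libraries (-0.017). Under the GENCODE lengths the log2 differences of neighbours reversed for Ctsl minus Ctsd (-2.83), Ctsz minus Ctss (-0.11), Ctsh minus Ctsc (-0.060) and Ctsc minus Ctsa (-0.52). With the GC slope removed, related pairs of cathepsins went from 24 to 8 and relations with partners from 21 to 33, and the r turned for Ctsa with Ctsc (0.24), Ctsc with Ctsd (0.45) and Ctsd with Ctsf (-0.48), none of which then passed. It turned and newly passed for Ctsc with Ctsz (0.80), Ctsd with the stefin A score (0.70) and Ctsz with Cst3 (-0.67). The cause of these changes was not tested. The fits without the smallest libraries or single mice, with the GC slope and with GENCODE lengths were chosen after seeing the data. Apart from single mice left out, 405 comparisons of a single gene, pair or list with its alternative kept direction and side of the threshold, 34 no longer passed it, 8 newly passed it, 8 counts moved by over 1.5 times and 14 changed direction. In the labels, same-numbered mice share only a number (correlations of their deviations from -0.17 to 0.51, the highest for number 4). The methods give 8 samples per lane, and no label names the lane of a mouse. With the replicate block the features called went from 996 to 1039, with 0 cathepsins called. Of the 10 cathepsins, numbers of reads limit Ctsw most, with 40 in its lowest mouse. The inhibitor genes Stfa2 and BC100530 had as few as 2.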
